A study of Rattus norvegicus with 8 samples.

Results

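The 9 genes described here encode NRF2 (Nfe2l2), the related factor NRF1 (Nfe2l1), the 3 small MAF proteins (Mafg, Maff and Mafk), the repressor BACH1 (Bach1), and 3 proteins that set how fast NRF2 is degraded (Keap1, Cul3 and Sqstm1). They were chosen by gene symbol, with earlier results of these data known. All 9 had 1 row each among the 40994 genes of the deposited count table, and all 9 passed the filter on low counts. RNA was sequenced in bulk from 4 samples of H9c2 cells exposed for 6 h to 100 µg/ml OxPAPC and from 4 samples that received vehicle. H9c2 is a rat myoblast line labelled as of myocardial origin, here without genetic modification and at passage 6. OxPAPC is what results when the membrane phospholipid palmitoyl-arachidonoyl-phosphatidylcholine is oxidised, a mixture of many species. All samples came from 1 line and carried 1 batch date, the labels give neither the makeup of the vehicle nor its time, and they do not say whether each sample was a culture of its own. The p-values therefore rest on the spread among these 8 samples, and some of it may be technical. In bulk RNA, fewer cells expressing a gene and less RNA per cell cannot be told apart.

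NRF2 is a bZIP transcription factor that binds antioxidant response elements as a dimer with a small MAF protein. In unstressed cells KEAP1 holds NRF2 and presents it to a ubiquitin ligase built on cullin 3, so the protein is made and destroyed without pause. Electrophiles and oxidants modify cysteines of KEAP1, and NRF2 then escapes degradation. BACH1 competes for the same DNA sites and for the same small MAF partners, and it leaves DNA when it binds heme. The cargo receptor p62, encoded by Sqstm1, binds KEAP1 and can take it into autophagosomes. This control acts largely on protein stability and location, which RNA counts do not measure.

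Libraries held 15.4 to 21.7 M counts. The 12 pairs of libraries within a group differed by more than sampling noise (chi-square per degree of freedom 2.23 to 9.50), so none repeated another. By this chi-square OxPAPC 23 and vehicle 15 stood farthest from the others of their groups. A principal component analysis ordered the OxPAPC libraries otherwise. On its second component, with 14.4% of the variance, OxPAPC 2 was at 18.4 and OxPAPC 23 at −13.4. Vehicle 1 was at 12.6 there and vehicle 15 at −14.7. Results without both OxPAPC 23 and vehicle 15 are given for Cul3, Fbxw11, Ube2m, the coactivators and the ratios. Of the myoblast markers, Myod1 averaged 94.1 CPM in OxPAPC and 85.9 CPM in vehicle and Myog 40.0 CPM in OxPAPC and 95.1 CPM in vehicle. Pax7, Myf5 and Myf6 had 2, 1 and 37 counts over the 8 libraries. Des averaged 10.3 CPM in OxPAPC and 12.0 CPM in vehicle, and Vim 3269.6 CPM in OxPAPC and 3185.3 CPM in vehicle. Of 7 cardiomyocyte markers, Myh6, Myh7, Nppa and Ryr2 had 3 to 7 counts over the 8 libraries and Tnni3 33, while Tnnt2 averaged 113.1 CPM in OxPAPC and 127.8 CPM in vehicle and Actc1 28.5 CPM in OxPAPC and 27.4 CPM in vehicle. The 7 summed to 138.7 to 146.5 CPM in OxPAPC and 145.7 to 166.7 CPM in vehicle. Of 5 macrophage markers, Ptprc and Adgre1 were at 0 and Cd68, Csf1r and Itgam had 122, 105 and 9 counts, and the 5 summed to 1.53 to 2.10 CPM in OxPAPC and 1.25 to 1.69 CPM in vehicle. Of 4 endothelial markers, Cdh5 and Kdr were at 0 and Tek and Pecam1 had 66 and 5 counts, and the 4 summed to 0.200 to 0.950 CPM in OxPAPC and 0.350 to 0.818 CPM in vehicle. The fibroblast markers summed to 64396 to 69297 CPM in OxPAPC and 67416 to 71213 CPM in vehicle, nearly all of it Col1a1 and Col1a2. Among them Pdgfra had 68 counts over the 8 libraries. Thy1 averaged 184.3 CPM in OxPAPC and 195.5 CPM in vehicle, and Dcn 81.5 CPM in OxPAPC and 83.1 CPM in vehicle. The part of the fall in Myog, or of any marker list, in the results below was not tested.

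OxPAPC raised transcripts of the BACH1 repressor, of MafG and MafF, and of p62 about 2-fold, raised Keap1 by 35.7% and Nfe2l2 by 14.5%, and left Nfe2l1 and Mafk short of the threshold. By edgeR's quasi-likelihood test, 7 of the 9 genes rose at an adjusted p under 0.05 and none fell, where 17.9% of the 13206 tested genes rose and 16.4% fell. One of the 7, Cul3, was borderline. At least 2-fold, 3 of the 9 rose (Sqstm1, Bach1 and Mafg), against 1.02% of all tested genes. Maff brought the number at or above 1.5-fold to 4, against 2.65% of all tested genes. The median log2 fold change of the 9 was 0.44, against 0.0022 for all tested genes. In 7 of the 9, every OxPAPC library lay above every vehicle library, against 16.8% of tested genes. The 9 were chosen with earlier results of these data known, so these shares and medians are given as a description. Over all genes 2369 rose and 2164 fell with TMM scaling, and 1829 rose and 2723 fell with upper-quartile factors. That scaling left the other 6 rises in place and ended the call of Cul3.

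**Figure D1:**
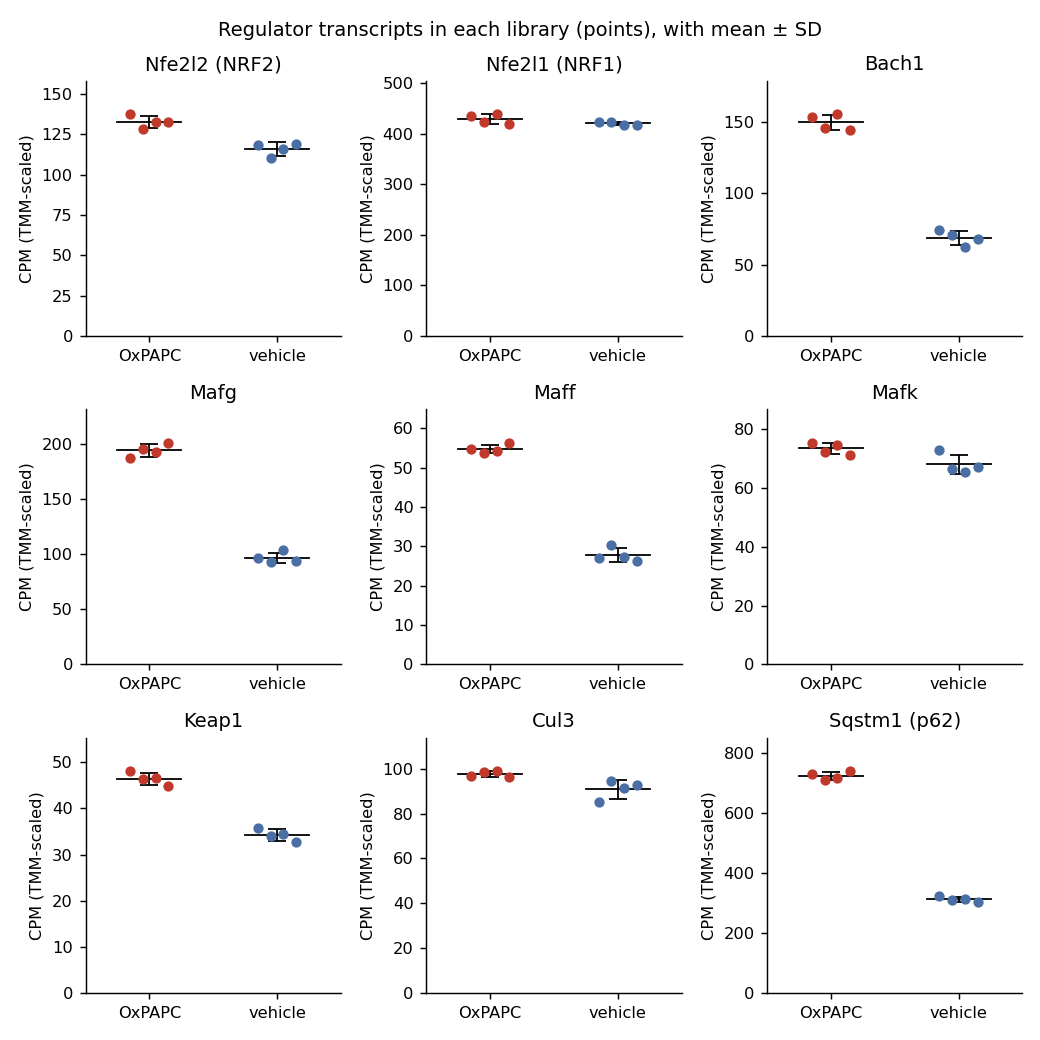
Counts per M counts (CPM) of the TMM-scaled library for the 9 regulators, on linear axes that start at 0. Points are the 4 OxPAPC (red) and 4 vehicle (blue) libraries, with lines for the mean and bars for the SD. Bach1, Mafg, Maff, Keap1 and Sqstm1 show a clear gap between the groups, Nfe2l2 and Cul3 a narrow one, and the groups overlap for Nfe2l1 and Mafk.

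Sequence just upstream of the start site is shown for the 4 genes with the largest rises. These are bases -250 to -1 on the gene's strand, 5′ to 3′, from RefSeq on build GRCr8. Windows from 250 bases before to 50 after the start existed for 8 of the 9 genes, with 3 windows for Nfe2l1. They were searched on both strands for 4 motifs that bZIP proteins are known to bind, and matches are in capitals. The motifs were the core of the antioxidant response element, TGACNNNGC, the core of the MAF recognition element, TGCTGAG, the AP-1 site, TGANTCA, and the cyclic AMP response element, TGACGTCA. The last 2 read alike or nearly alike on both strands, and no 2 matches in these windows overlapped.
Sqstm1, chr10:35037751-35038000, minus strand: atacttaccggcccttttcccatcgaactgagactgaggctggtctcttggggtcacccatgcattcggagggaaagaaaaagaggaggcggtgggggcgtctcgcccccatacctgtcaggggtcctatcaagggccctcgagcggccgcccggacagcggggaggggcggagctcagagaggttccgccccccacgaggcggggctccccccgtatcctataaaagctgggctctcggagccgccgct
Bach1, chr11:40425471-40425720, plus strand: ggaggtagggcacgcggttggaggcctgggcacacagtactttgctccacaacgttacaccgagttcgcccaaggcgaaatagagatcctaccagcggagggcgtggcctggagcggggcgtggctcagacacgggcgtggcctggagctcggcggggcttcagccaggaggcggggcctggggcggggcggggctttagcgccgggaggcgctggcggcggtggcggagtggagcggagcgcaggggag
Mafg, chr10:106410133-106410382, minus strand: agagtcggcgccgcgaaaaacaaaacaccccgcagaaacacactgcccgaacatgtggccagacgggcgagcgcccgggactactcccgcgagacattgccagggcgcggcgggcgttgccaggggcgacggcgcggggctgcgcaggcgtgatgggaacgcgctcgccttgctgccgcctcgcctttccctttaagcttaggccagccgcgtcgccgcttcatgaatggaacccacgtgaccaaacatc
Maff, chr7:112792537-112792786, plus strand: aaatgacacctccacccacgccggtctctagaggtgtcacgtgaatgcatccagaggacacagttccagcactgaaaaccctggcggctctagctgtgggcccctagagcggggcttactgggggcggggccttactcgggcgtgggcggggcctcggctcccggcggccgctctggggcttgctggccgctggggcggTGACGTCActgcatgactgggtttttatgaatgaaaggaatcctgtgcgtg

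Of these 4 stretches, the one of Maff held a match, TGACGTCA, which begins 51 bases before the start and is found in 1.83% of 33469 windows. The matches in Bach1 and Nfe2l2 lay after the start and are shown with up to 9 bases on each side.
Bach1, chr11:40425741-40425765, plus strand: cggagggagTGAGTCAcctgaccgc
Nfe2l2, chr3:81028950-81028970, minus strand: actagccatTGACGCCGCctc
The Bach1 match is an AP-1 site beginning at base 30, a motif found in 7.33% of windows. The Nfe2l2 match is an antioxidant response element core beginning at base 39, a motif found in 12.1% of windows, and Mafk held this motif on its other strand, beginning 41 bases before the start. The MAF element core, in 7.14% of windows, was found in 1 of the 3 windows of Nfe2l1. These matches are letters in a short window and say nothing of binding, and elements farther from the start were not searched.

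The NRF2 gene itself moved little. Nfe2l2 (gene 83619, chromosome 3, 60594239 to 60621785, minus strand) had 137.5, 128.0, 132.4 and 132.8 CPM in OxPAPC libraries 2, 9, 16 and 23, against 118.5, 110.1, 115.9 and 119.2 CPM in vehicle libraries 1, 8, 15 and 22. Positions are those of the deposited table, and its build is not stated in the sources. The groups did not overlap, with OxPAPC 9 the lowest of its group and still above vehicle 22. The means were 132.7 ± 3.85 CPM in OxPAPC and 115.9 ± 4.14 CPM in vehicle (SD, n = 4), and the log2 fold change was 0.20 ± 0.04 (SE, edgeR adjusted p = 0.000246). The rise passed in all 20 alternatives. Nfe2l2 ranked 2505 by log2 fold change among the 13206.

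Nfe2l1 encodes a factor that is held at the endoplasmic reticulum and, once released, is known to drive proteasome genes. Nfe2l1 (gene 360610, chromosome 10, 81796055 to 81812926, minus strand) had 435.2, 422.9, 438.7 and 419.0 CPM in OxPAPC 2, 9, 16 and 23, against 424.3, 422.5, 418.0 and 418.3 CPM in vehicle 1, 8, 15 and 22. OxPAPC libraries 2 and 16 were above the vehicle range, and 9 and 23 lay within it. Means were 429.0 ± 9.44 CPM in OxPAPC and 420.8 ± 3.12 CPM in vehicle (SD, n = 4). The log2 fold change was 0.03 ± 0.03 (edgeR adjusted p = 0.475) with a 95% interval of −0.03 to 0.08, so a change beyond 1.06-fold lay outside the interval. With upper-quartile factors the value was −0.01.

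Small MAF proteins have a DNA-binding leucine zipper and no activation domain of their own, and serve as the shared partners of NRF2, NRF1 and BACH1. Mafg (gene 64188, chromosome 10, 105903307 to 105911845, minus strand) had 187.5, 195.7, 192.6 and 201.2 CPM in OxPAPC 2, 9, 16 and 23, against 96.5, 92.6, 103.6 and 93.9 CPM in vehicle 1, 8, 15 and 22. Every OxPAPC library was far above every vehicle library, and vehicle 15 was the highest of its group. The means were 194.2 ± 5.71 CPM in OxPAPC and 96.6 ± 4.90 CPM in vehicle (SD, n = 4), and the log2 fold change was 1.01 ± 0.04 (edgeR adjusted p = 2.67e-15).

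Maff (gene 366960, chromosome 7, 110912499 to 110923851, plus strand) had 54.6, 53.7, 54.2 and 56.3 CPM in OxPAPC 2, 9, 16 and 23, against 27.1, 30.3, 27.2 and 26.3 CPM in vehicle 1, 8, 15 and 22. The groups were well apart, with vehicle 8 the highest of the vehicle libraries. The means were 54.7 ± 1.12 CPM in OxPAPC and 27.8 ± 1.77 CPM in vehicle (SD, n = 4), and the log2 fold change was 0.98 ± 0.05 (edgeR adjusted p = 1.61e-12).

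Mafk (gene 246760, chromosome 12, 14834628 to 14856414, minus strand) had 75.3, 72.2, 74.6 and 71.2 CPM in OxPAPC 2, 9, 16 and 23, against 72.8, 66.4, 65.3 and 67.1 CPM in vehicle 1, 8, 15 and 22. The groups overlapped through vehicle 1, which lay above OxPAPC 9 and 23. The means were 73.3 ± 1.93 CPM in OxPAPC and 67.9 ± 3.34 CPM in vehicle (SD, n = 4). Its log2 fold change of 0.11 ± 0.04 did not pass (edgeR adjusted p = 0.0542; 95% interval before adjustment 0.02 to 0.20). It passed without vehicle 1 (0.15, edgeR adjusted p = 0.0166) and without OxPAPC 23 (0.12, edgeR adjusted p = 0.0409), over a range of 0.0166 to 0.288 across 20 alternatives. A long noncoding gene overlaps Mafk by 2597 bases on the opposite strand, but had only 12 counts in the 8 libraries.

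Summed per kb of gene, the 3 small MAF transcripts came to 56.2 ± 0.818 CPM per kb in OxPAPC and 32.4 ± 0.685 CPM per kb in vehicle (SD, n = 4), a ratio of 1.73 with no test. Their makeup, which rests on annotated lengths of 8408 bases for Mafg, 2375 for Maff and 7325 for Mafk, shifted as well. Mafk made up 17.8 ± 0.678% of the sum in OxPAPC and 28.6 ± 1.40% in vehicle, Mafg 41.1 ± 0.760% in OxPAPC and 35.4 ± 1.73% in vehicle, and Maff 41.0 ± 0.391% in OxPAPC and 36.0 ± 1.93% in vehicle. In each of the 4 OxPAPC libraries the share of Mafk, 17.0 to 18.5%, was below its share in each vehicle library, 27.3 to 30.3%.

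**Figure D2:**
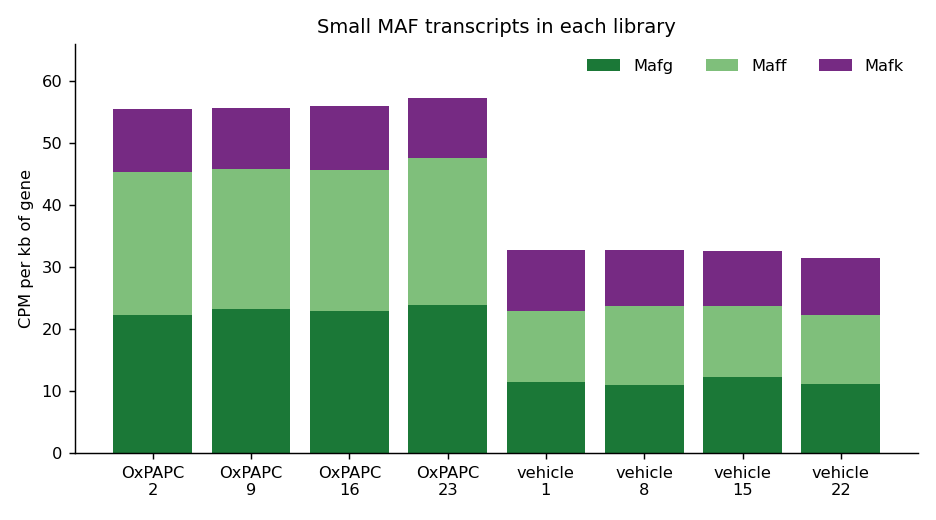
Small MAF transcripts in each of the 8 libraries, as stacked bars of CPM per kb of gene from 0 (linear axis); colours are Mafg, Maff and Mafk. The OxPAPC bars reach 55.6 to 57.4 and the vehicle bars 31.4 to 32.9, with the Mafk segment of like height in both groups.

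Bach1 (gene 304127, chromosome 11, 26939429 to 26974876, plus strand), the gene of the repressor, had 153.4, 146.0, 155.5 and 144.7 CPM in OxPAPC 2, 9, 16 and 23, against 74.0, 70.6, 62.6 and 67.7 CPM in vehicle 1, 8, 15 and 22. The lowest OxPAPC library was well above the highest vehicle library. The means were 149.9 ± 5.37 CPM in OxPAPC and 68.7 ± 4.80 CPM in vehicle (SD, n = 4), and the log2 fold change was 1.12 ± 0.05 (edgeR adjusted p = 7.79e-15). Bach1 ranked 99 by log2 fold change among the 13206 tested genes. A pseudogene and a long noncoding gene overlap it on the opposite strand, with 8 and 5 counts in the 8 libraries.

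Keap1 (gene 117519, chromosome 8, 19768375 to 19777862, minus strand), the sensor and adaptor that holds NRF2, had 48.1, 46.4, 46.6 and 44.9 CPM in OxPAPC 2, 9, 16 and 23, against 35.7, 34.1, 34.5 and 32.7 CPM in vehicle 1, 8, 15 and 22. The groups were apart, with vehicle 1 the nearest to the OxPAPC range. The means were 46.5 ± 1.3 CPM in OxPAPC and 34.2 ± 1.25 CPM in vehicle (SD, n = 4), and the log2 fold change was 0.44 ± 0.05 (edgeR adjusted p = 3.88e-07).

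Cul3 (gene 301555, chromosome 9, 81592641 to 81670428, minus strand), the scaffold of the ligase, had 96.8, 98.6, 98.9 and 96.3 CPM in OxPAPC 2, 9, 16 and 23, against 85.0, 94.6, 91.2 and 92.8 CPM in vehicle 1, 8, 15 and 22. The groups did not overlap, but vehicle 8 came within 2 CPM of OxPAPC 23. The means were 97.7 ± 1.3 CPM in OxPAPC and 90.9 ± 4.18 CPM in vehicle (SD, n = 4). The log2 fold change of 0.10 ± 0.04 was just past the threshold (edgeR adjusted p = 0.0488). It passed in only 3 of the 20 alternatives, over a range of 0.035 to 0.276, and of the single libraries only OxPAPC 23 and vehicle 8 could be left out without losing it. Without vehicle 15 and OxPAPC 23 together it was 0.11 (edgeR adjusted p = 0.0511). Without vehicle 1, the lowest library, it was 0.07 (edgeR adjusted p = 0.187).

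Sqstm1 (gene 113894, chromosome 10, 34525517 to 34536685, minus strand) had 731.3, 709.6, 716.4 and 739.0 CPM in OxPAPC 2, 9, 16 and 23, against 321.5, 310.4, 313.7 and 302.2 CPM in vehicle 1, 8, 15 and 22. The lowest OxPAPC library was far above the highest vehicle library. The means were 724.1 ± 13.5 CPM in OxPAPC and 311.9 ± 7.99 CPM in vehicle (SD, n = 4), a 2.32-fold rise with a 95% interval of 2.23 to 2.42 (edgeR adjusted p = 1.44e-19). Sqstm1 ranked 82 by log2 fold change and 12 by p among the 13206 tested genes.

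**Figure D3:**
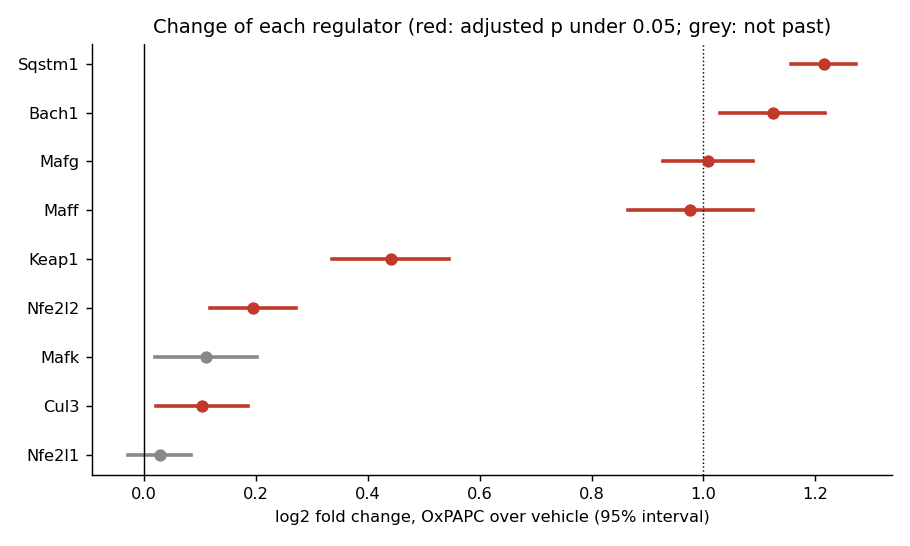
Log2 fold change of each regulator, OxPAPC over vehicle, from edgeR; bars are 95% intervals before adjustment, red marks an adjusted p under 0.05 and grey marks genes not past it, and the dotted line is a 2-fold rise. Sqstm1, Bach1, Mafg and Maff lie near or above 2-fold, Keap1 at 0.44, and the other 4 between 0.03 and 0.20.

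Levels of different genes were compared per length, in the deposited FPKM (fragments per kb per M counted). Lengths are those annotated in the deposited table, and transcript lengths in these cells were not measured. In OxPAPC, Sqstm1 was the most abundant at 326.9 ± 6.41 FPKM, followed by Nfe2l1 at 79.3 ± 1.61, Mafg at 23 ± 0.769, Maff at 22.9 ± 0.530, Nfe2l2 at 21.2 ± 0.571, Cul3 at 19.8 ± 0.287, Keap1 at 13.9 ± 0.328, Bach1 at 13.9 ± 0.474 and Mafk at 9.94 ± 0.233 FPKM (SD, n = 4). In that group the libraries of Mafg and Maff overlapped, as did those of Keap1 and Bach1, while every other neighbouring pair in the order was apart. In vehicle the order was Sqstm1 at 143.5 ± 3.47, Nfe2l1 at 79.3 ± 0.346, Nfe2l2 at 18.9 ± 0.692, Cul3 at 18.8 ± 0.883, Maff at 11.8 ± 0.733, Mafg at 11.6 ± 0.614, Keap1 at 10.5 ± 0.365, Mafk at 9.38 ± 0.441 and Bach1 at 6.49 ± 0.435 FPKM (SD, n = 4). There Nfe2l2 and Cul3, Maff and Mafg, and Keap1 and Mafk overlapped. Bach1 was thus the lowest of the 9 in vehicle and above Mafk in OxPAPC, and Mafg and Maff were above Nfe2l2 in OxPAPC and below it in vehicle.

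The following 6 ratios of counts per kb between these genes were compared within libraries, where scaling cannot matter, with 70 regroupings in an exact permutation test, two-sided, whose smallest p is 0.0286. The ratio of Nfe2l2 to Bach1 was 1.54, 1.51, 1.47 and 1.58 in OxPAPC 2, 9, 16 and 23, against 2.76, 2.69, 3.19 and 3.03 in vehicle 1, 8, 15 and 22. On the log2 scale it was 0.61 ± 0.05 in OxPAPC and 1.54 ± 0.12 in vehicle (SD, n = 4), a difference of −0.93 (exact permutation p = 0.0286, 0.0343 adjusted over the 6 ratios). Transcripts of the activator thus exceeded those of the repressor per kb in every library, by a smaller factor with OxPAPC. This order rests on the annotated lengths, 6217 bases for Nfe2l2 and 10709 for Bach1. Before division by length, Bach1 had 2304, 2777, 2454 and 2892 counts in OxPAPC 2, 9, 16 and 23. Nfe2l2 had fewer there (2064, 2435, 2090 and 2656) and more than Bach1 in every vehicle library. The difference between the groups does not depend on the lengths.

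The ratio of Nfe2l2 to Keap1 was 1.47 to 1.58 in OxPAPC and 1.72 to 1.94 in vehicle, a log2 difference of −0.25, and that of Nfe2l2 to Nfe2l1 was 0.261 to 0.274 in OxPAPC and 0.225 to 0.246 in vehicle, a log2 difference of 0.17. Sqstm1 exceeded Keap1 by 22.9 to 24.8 times in OxPAPC and by 13.6 to 13.9 times in vehicle, a log2 difference of 0.77. The ratio of Mafk to Mafg was 0.406 to 0.461 in OxPAPC and 0.723 to 0.866 in vehicle, a log2 difference of −0.90. Each of these 4 ratios was apart in all libraries (exact permutation p = 0.0286, adjusted p = 0.0343). The ratio of Maff to Mafg was 0.972 to 1.03 in OxPAPC and 0.930 to 1.16 in vehicle, and the log2 difference of −0.03 did not pass (exact permutation p = 0.83). Without vehicle 8 it was 0.04 (exact permutation adjusted p = 0.371). Without both vehicle 15 and OxPAPC 23 the smallest possible p of a ratio is above the threshold, so its calls end there by construction.

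**Figure D4:**
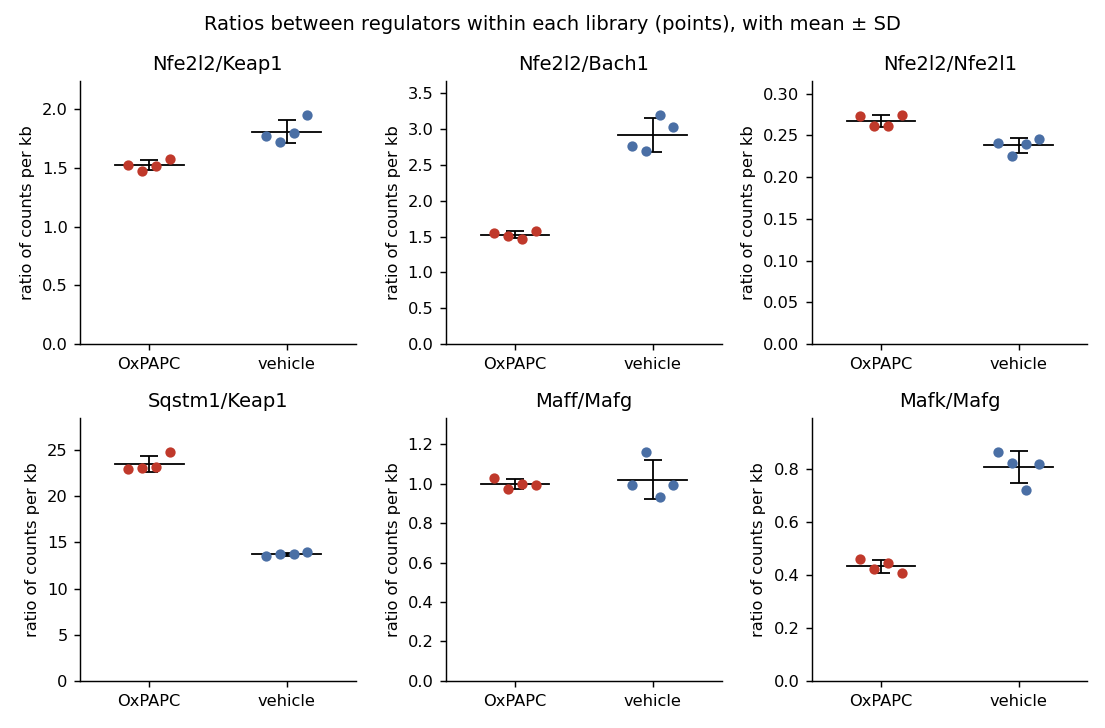
Ratios of counts per kb between pairs of regulators in each library, on linear axes from 0, with OxPAPC in red left of vehicle in blue; lines and bars are mean and SD over 4 libraries. In 5 of the 6 panels the groups are apart, and for Maff to Mafg they overlap around 1.

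Of the 9 genes 6 are annotated as bZIP factors in the deposited table, and this annotation was taken up after the values were seen. Of 51 genes in the class 40 were tested, and of the 34 that are not among the 9, 14 rose, 9 fell and 11 did not pass. Over all tested genes, 17.9% rose and 16.4% fell. The median log2 fold change was 0.59 for the 6 and 0.10 for the other 34. By log2 fold change Bach1, Mafg and Maff ranked 2, 3 and 4 of the 40, behind Fosl1 (1.65 ± 0.05, edgeR adjusted p = 1.7e-16), a FOS relative of AP-1. Next came Cebpb (0.78 ± 0.04, edgeR adjusted p = 3.77e-11), and Cebpd fell furthest (−0.62 ± 0.10, edgeR adjusted p = 2.79e-05). Nfe2l2 ranked 16, Mafk 21 and Nfe2l1 25.

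**Figure D5:**
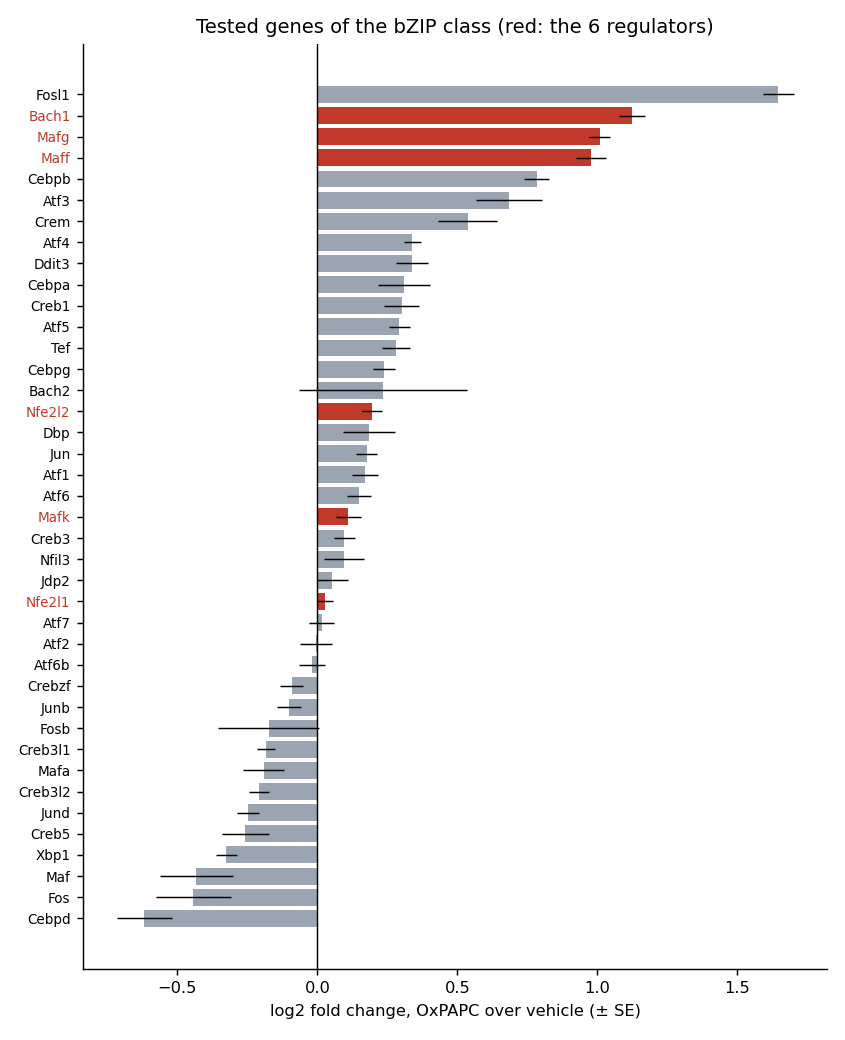
Log2 fold change, OxPAPC over vehicle, with SE, of the 40 tested genes annotated as bZIP factors in the deposited table, in order; red bars and names are the 6 regulators described here. Bach1, Mafg and Maff stand just under Fosl1 at the top, and Nfe2l2, Mafk and Nfe2l1 lie in the middle.

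Among the relatives of these factors, the other CNC, BACH and large MAF genes, 3 were tested. Of these none rose, 2 fell and 1 did not pass, with a median log2 fold change of −0.19, where 17.9% of all tested genes rose and 16.4% fell. The large MAF gene Maf, which unlike small MAFs carries an activation domain, fell to 9.78 ± 2.10 CPM in OxPAPC, against 13.2 ± 1.24 CPM in vehicle (SD, n = 4; −0.43 ± 0.13, edgeR adjusted p = 0.0158). The call of Maf was lost in 2 of 20 alternatives, limma on log2(FPKM + 0.1) (adjusted p = 0.0563) and on log2(FPKM + 1) with no filter (−0.20, adjusted p = 0.119). Mafa fell by 0.19 on the log2 scale (edgeR adjusted p = 0.0466), a call lost in 10 of 20 alternatives, among them the removal of any single library except OxPAPC 23. Bach2 did not pass at about 1 CPM. Nfe2, the erythroid founder of the CNC family, had 2 counts and Nfe2l3 12 counts over the 8 libraries, and Nrl had none.

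Genes that further control NRF2 degradation changed less than Keap1 in size. Of 13, 3 rose (Usp15, Fbxw11 and Ube2m), 1 fell (Usp11) and 9 did not pass, with a median log2 fold change of 0.08. Among all tested genes 17.9% rose and 16.4% fell. Usp15, a deubiquitinase known to act on KEAP1, rose by 0.16 ± 0.04 (edgeR adjusted p = 0.00481). Usp11, a deubiquitinase described for NRF2, fell to 9.20 ± 0.984 CPM in OxPAPC, against 11.7 ± 0.631 CPM in vehicle (SD, n = 4; −0.35 ± 0.10, edgeR adjusted p = 0.00851). The rises of Fbxw11 (0.14) and of the neddylation enzyme Ube2m (0.17) were lost in 6 and 12 of 20 alternatives, Fbxw11 also without vehicle 15 and Ube2m without any single library except OxPAPC 2 and vehicle 1. Without vehicle 15 and OxPAPC 23 together the edgeR adjusted p was 0.0791 for Fbxw11 and 0.286 for Ube2m. The RING subunit Rbx1 (0.08 ± 0.05, edgeR adjusted p = 0.221) and the kinase Gsk3b (0.12 ± 0.05, edgeR adjusted p = 0.0535) did not pass.

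Proteins that bind KEAP1 or NRF2 were mixed. Of 11 such genes, 3 rose (Cdkn1a, Sesn2 and Pgam5), 4 fell (Mcm3, Brca1, Ptma and Palb2) and 4 did not pass, with a median log2 fold change of 0.02. For this list and the next, the shares over all tested genes were 17.9% for rises and 16.4% for falls. Mcm3, better known as a subunit of the replicative helicase, fell to 40.1 ± 2.92 CPM in OxPAPC, against 68.9 ± 2.91 CPM in vehicle (SD, n = 4; −0.78 ± 0.05, edgeR adjusted p = 8.15e-11). Cdkn1a, the p21 inhibitor of cell cycle kinases, rose by 0.25 ± 0.03 (edgeR adjusted p = 5.78e-06). Among 6 coactivators and the nuclear receptor Rxra, Rxra rose (0.44 ± 0.04, edgeR adjusted p = 1.1e-08). Its protein is known to restrain NRF2. The 6 coactivators did not pass, and 2 of the 7 genes rose without vehicle 15 and OxPAPC 23 together. The median log2 fold change of the 7 was 0.05, and that of Crebbp was 0.14 ± 0.10 (edgeR adjusted p = 0.291).

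The partners of p62 in autophagy, a list chosen with earlier results of these data known, rose in 7 of 11, with 4 not past. Of all tested genes 17.9% rose. The median log2 fold change of the 11 was 0.14, and the median absolute log2 fold change of all tested genes was 0.15. The number of the 11 that rose was 5 with upper-quartile factors, with limma on log2(FPKM + 1) and no filter, and without OxPAPC 9. Gabarapl1, a ubiquitin-like protein of the autophagosome membrane that p62 can bind, rose to 106.7 ± 3.42 CPM in OxPAPC, against 49.0 ± 4.56 CPM in vehicle (SD, n = 4; 1.12 ± 0.05, edgeR adjusted p = 2.61e-12). The cargo receptor Nbr1 rose by 0.27 ± 0.03 (edgeR adjusted p = 8.95e-07). The calls of Tax1bp1 and Map1lc3a were lost in 5 and 3 of 20 alternatives, both of them without OxPAPC 9.

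Downstream genes were counted from lists for each factor, chosen with earlier results of these data known. Of all tested genes 17.9% rose, 16.4% fell and 1.02% rose at least 2-fold. Of 20 known targets of NRF2 or BACH1 all 20 rose, and 14 rose at least 2-fold; the median log2 fold change was 1.18. The log2 fold change of heme oxygenase 1 (Hmox1), a gene that BACH1 is known to repress, was 4.81 ± 0.04 (edgeR adjusted p = 2.34e-25), and that of Nqo1 was 2.28 ± 0.03 (edgeR adjusted p = 3.87e-24). Of 32 proteasome genes, the known targets of NRF1, 28 rose, none fell and 4 (Psmb2, Psmb4, Psmc3 and Psmb5) did not pass, with a median log2 fold change of 0.19 and 25 to 28 rises over 20 alternatives. Psmd5, a chaperone of proteasome assembly, rose to 100.4 ± 2.81 CPM in OxPAPC, against 49.3 ± 1.49 CPM in vehicle (SD, n = 4; 1.02 ± 0.04, edgeR adjusted p = 5.77e-15), and the lid subunit Psmd11 rose by 0.66 ± 0.04 (edgeR adjusted p = 1.96e-11).

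Of 5 genes that process NRF1, 2 rose, 2 fell and 1 (Fbxw7) did not pass, with a median of 0.02 on the log2 scale. The shares over all tested genes were 17.9% for rises and 16.4% for falls. The segregase Vcp, which pulls NRF1 out of the endoplasmic reticulum, rose by 0.31 ± 0.03 (edgeR adjusted p = 2.78e-09), and the protease Ddi2, which cleaves it, rose by 0.22 ± 0.04 (edgeR adjusted p = 0.000352). The deglycosylase Ngly1 fell by 0.23 on the log2 scale (edgeR adjusted p = 0.0064) and the ligase adaptor Sel1l by 0.14 (edgeR adjusted p = 0.00505).

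By Pearson correlation of log2 CPM over the 8 libraries, the genes most like Sqstm1 among 9063 with a mean of at least 10 CPM were Hspa8, Nqo1 and Zfand2a (r = 0.999 or more each). Those most like Mafg were Ppm1b, Slc6a9 and Tkt (r = 0.998 to 0.999), and those most like Nfe2l2 were Pisd, Cep76 and Nr1h2 (r = 0.983 to 0.984). The 8 libraries form 2 separate groups, so these values follow the difference between the groups and are given as a description.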

How the data were processed

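Whole-number counts per gene, not normalized, and FPKM values were deposited by the authors for 8 libraries. The submitters' processing notes name featureCounts 1.5.0-p3, HISAT2 2.0.5 and StringTie 1.3.3b without role or order. Per the labels' protocols libraries were directional and non-directional, so use of strand in counting is not known. The deposited FPKM equal count per kb per M counts times 1 factor per library (0.987 to 1.02). In each file 1 line was emptied for this work. Chromosome numbers come from gene identifiers in a RefSeq table of GRCr8, and coordinates from the deposited table.

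Counts were filtered by filterByExpr (10 counts at the median library size in 4 libraries, 15 in total), which left 13206 genes. They were TMM-scaled and tested with edgeR 4.0.16 in R 4.3.3 (robust quasi-likelihood F test, Benjamini-Hochberg over all tested genes, threshold 0.05). The procedure was also run on counts simulated from the dispersion fitted to these same libraries. That run cannot check the fit or whether the samples are independent. SE is the absolute log2 fold change over the square root of F. Members and lists were chosen with earlier results of these data known. Named genes are the 9 regulators, in each list the 2 smallest p, exceptions to its direction and genes too scarce to test (1 of them is not reported here), and 3 correlates each of Nfe2l2, Mafg and Sqstm1. Other list genes, among them Rbx1 and Gsk3b, and Fosl1, Cebpb and Cebpd, were named after their values were seen. Alternatives used DESeq2 1.42.0, limma 3.58.1, other scalings and filters, and fewer libraries.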

Additional observations from a re-analysis of the deposited data

Results flagged for a closer look

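Values far from the other 3 libraries of their group were looked for in 32 sets of 4 libraries, by the gap to the nearest library as a share of the range. Chance flags about 1 set in 20, and 2 were flagged. The ratio of Sqstm1 to Keap1 counts per kb was 24.8 in OxPAPC 23 and 22.9 to 23.2 in the other OxPAPC libraries (gap 0.860 of the range). The summed small MAF level was 31.4 CPM per kb in vehicle 22 and 32.7 to 32.9 in the other vehicle libraries (gap 0.883 of the range). Neither value reached the range of the other group.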

How the results depend on the processing

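The rises of Nfe2l2, Mafg, Maff, Bach1, Keap1 and Sqstm1 passed in each of the 20 alternatives, and 6 to 8 of the 9 regulators rose and none fell when single libraries were left out. Cul3 was lost in 17 alternatives, Mafk gained a call in 2, and the sign of Nfe2l1 turned with upper-quartile factors (−0.010). The log2 ratio of Maff to Mafg ran from −0.069 to 0.037 when single libraries were left out and was 0.037 without vehicle 8; the cause was not tested. Without vehicle 15 and OxPAPC 23 together, 3 libraries a group cannot reach the threshold in a permutation test (adjusted p = 0.12 for 5 ratios). The log2 differences were then −0.27 for Nfe2l2 to Keap1, −0.91 for Nfe2l2 to Bach1, 0.16 for Nfe2l2 to Nfe2l1, 0.75 for Sqstm1 to Keap1 and −0.92 for Mafk to Mafg. The summed small MAF ratio of 1.73 was 1.70 with the deposited FPKM. Over all genes 2369 rose, and 1488 did with limma on log2(FPKM + 1) and no filter. No paired analysis was run because the groups share no replicate number. The title numbers run in neighbouring pairs (1 and 2, 8 and 9, 15 and 16, 22 and 23), but the labels do not say that these mark a shared plate or culture, and no block was fitted on them. Between 451 and 14775 counts per library lay behind each of the 9 genes. The small call of Cul3 rests on the spread of 4 libraries a group.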
